A study of Rattus norvegicus with 8 samples.

Results

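The RNA that plasma exosomes of resting rats carry was described from 4 libraries of sedentary rats. Its members were the nuclear mRNAs with a value above 0 TPM (reads of a gene divided by its length and scaled to the same total in every library) in all 4 of these libraries. By this rule 3751 of 20174 nuclear mRNA genes were members, out of 29541 genes of all RNA types in the table. The rule used no difference between groups, and the exercised libraries of the series were compared with nothing here.

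The rats were male Sprague Dawley rats of the cohort kept for exosome RNA, which received no alpha-synuclein fibrils. Sedentary rats were brought to the treadmill room but did not run, and their 4 libraries are labelled a, b, c and d. Blood was taken by puncture of the left ventricle of the heart into heparin-lithium tubes, cells and debris were spun out of the plasma, and exosomes were precipitated with a kit. RNA was made into stranded total RNA libraries for very low input, without fragmentation and with ribosomal cDNA removed. Whether a library came from 1 rat is not stated in the labels, so the SD given with each mean is the spread between libraries.

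Exosomes are small vesicles that form inside the endosomes of a cell and are released when these fuse with the cell surface. Blood cells, platelets, the vessel wall and the liver, whose capillaries have wide openings, are known to release vesicles into plasma. Precipitation also brings down other carriers of RNA, such as lipoproteins and protein complexes. In such a bulk sample, fewer cells of a type and less RNA per cell cannot be told apart, and neither can RNA inside and outside vesicles.

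The nuclear mRNAs that could be typed by name were a very small part of the RNA. Genes with no assigned type could hold further mRNAs. Nuclear mRNAs took 0.117, 0.118, 0.102 and 0.173% of all TPM in libraries a, b, c and d, a mean of 0.128% ± 0.0314 (SD, n = 4). Ribosomal RNA took 41.0% ± 3.87, 7SL RNA, part of the particle that brings secretory proteins to the endoplasmic reticulum, 5.25% ± 2.21, and genes with no assigned type 52.7% ± 5.33, of which 1 gene, ENSRNOG00000063301, made up 49.2% of all TPM. Small nuclear RNA, led by LOC120097291, held 0.369%, small nucleolar RNA, led by LOC120093422, held 0.225%, and pseudogenes, led by LOC120096074, held 0.161%. Vault RNA, of 1 gene, was at 0.0745%, Rpph1, the RNA of RNase P, led a pair of genes at 0.0286%, and mitochondrially encoded RNA, led by AY172581.24, was at 0.0166%. Y RNA, led by Y_RNA_5, held 0.0101%, and microRNA, long non-coding RNA and other RNA, led by Mir92a1, LOC102549303 and LOC120096124, held 0.00154, 0.000441 and 0.000191%. The libraries held 31357153, 17694853, 29223051 and 27151937 reads, of which 67090, 43278, 65130 and 91000 fell on nuclear mRNAs. Library b was the shallowest by both counts and library d had the most mRNA reads. All mRNA levels from here on are shares of the TPM of nuclear mRNAs in a library, which takes the dominant RNAs out of the denominator.

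Only 2 microRNA genes, Mir92a1 and rno-mir-486, were above 0 in all 4 libraries, with 5, 5, 4 and 8 reads and with 2, 2, 1 and 2 reads. Both lie near the limit of detection in every library. The gene row of Mir92a1 does not say which arm of the hairpin was read, so both mature sequences of RefSeq (rat build GRCr8, chr15:98588565-98588587 and chr15:98588602-98588622, plus strand) are shown, with the seed, bases 2 to 8, in capitals.
rno-miR-92a-1-5p: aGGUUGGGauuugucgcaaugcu
rno-miR-92a-3p: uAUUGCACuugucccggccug

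Detection of mRNAs was sparse, and the shared mRNAs held most of the reads. Libraries a, b, c and d had 9716, 6762, 8157 and 9627 nuclear mRNAs above 0. Of the 20174 genes, 3751 were above 0 in 4 libraries, 3026 in 3, 3264 in 2, 3652 in 1 and 6481 in none. The 3751 members held 76.8, 78.3, 79.5 and 73.5% of the nuclear mRNA TPM, and 80.7% of the 266498 nuclear mRNA reads. A member had a median of 20 reads over the 4 libraries together, with the middle 50% of members between 11 and 39. At least 100 reads fell on 350 members and at least 1000 reads on 23, while 1696 members rested on a single read in at least 1 library. Drawing every library down to the 43278 mRNA reads of library b would leave an expected 2879 members, and 8192, 6762, 6979 and 7385 mRNAs in a, b, c and d. Membership therefore moves with depth. A gene outside the members had no read in at least 1 library, which does not show whether it was absent or below detection.

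**Figure D1:**
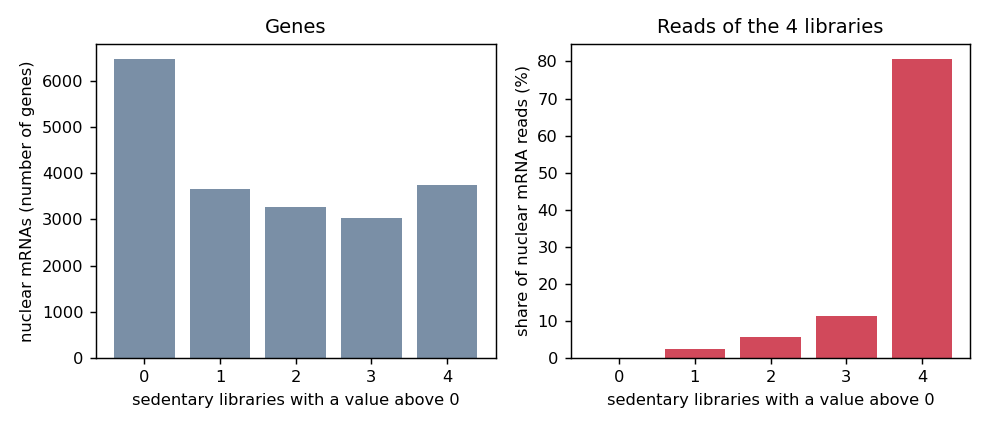
Nuclear mRNAs by the number of sedentary libraries (0 to 4) in which they had a value above 0, with the number of genes on the left and their share of the nuclear mRNA reads of the 4 libraries on the right, in percent. The 3751 genes seen in all 4 libraries are 18.6% of the genes and hold 80.7% of the reads.

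Members had longer recovered exon lengths than the mRNAs seen less often, and their promoters were richer in G and C. The recovered length is the smallest that fits, so it can be too short, most of all for genes with few reads, and part of the trend may be built in. It had a median of 3932 bases in members, 3262 in mRNAs of 3 libraries, 2881 in those of 2 and 2423 in those of 1. The RefSeq window from 250 bases before to 50 after the start of a gene had a median GC content of 62.3% in the 3040 members matched to one by name, with or without a copy number, against 61.0, 59.3 and 57.7% for mRNAs of 3, 2 and 1 libraries and 48.7% for those of none. A longer mRNA gives more reads at the same TPM, and the part of length in membership was not tested.

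A few mRNAs led all others. The 30 most abundant members held 24.8, 27.9, 26.6 and 22.6% of the nuclear mRNA TPM, a mean of 25.5% ± 2.31 (SD, n = 4), and 305 genes together held 50% of it. Of these 30, 11 were among the 30 highest members in each of the libraries and 20 among the 100 highest. A total of 8 were on a list of genes known for 1 tissue or cell type and 12 on any list, while the 18 on no list held 17.2%. The names at the top therefore point to a known source for a minority of the genes.

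**Figure D2:**
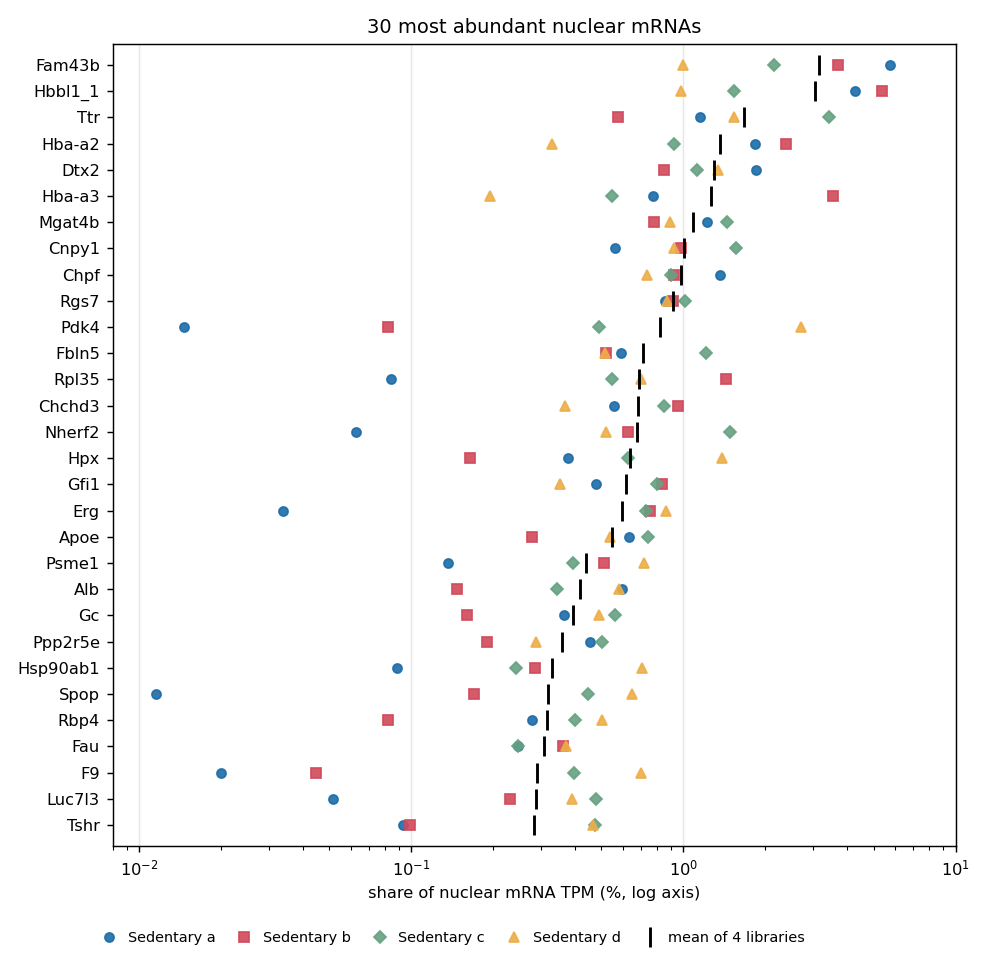
Share of nuclear mRNA TPM (percent, log axis) of the 30 most abundant members in Sedentary a, b, c and d, with a bar at the mean of the 4 libraries. Fam43b and Hbbl1_1 lead by mean share, the 4 points of Rgs7 lie between 0.857 and 1.01%, and those of Pdk4 spread from 0.0146 to 2.70%.

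Fam43b, a little studied gene with a phosphotyrosine-binding domain, was first, at 5.74% in library a, 3.69% in b, 2.15% in c and 0.996% in d. Its reads were 1329, 561, 478 and 305. The highest share, in a, was 5.76 times the lowest, in d, the library with the most mRNA reads.

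The globins came next. Hbbl1_1, a copy of a beta globin-like gene in the table, held 4.26, 5.35, 1.53 and 0.978% in a, b, c and d. Hba-a2, an alpha chain of haemoglobin, held 1.84, 2.38, 0.926 and 0.329%, and Hba-a3, a further alpha globin, 0.775, 3.53, 0.546 and 0.195%. All of these were highest in library b and lowest in library d. The alpha globin genes are near copies of each other, so the split of reads between Hba-a2 and Hba-a3 is uncertain and their sum is safer than either.

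Among the leading mRNAs on no list, Rgs7, a regulator of G protein signalling known mainly from neurons, was the steadiest, at 0.857, 0.918, 1.01 and 0.873% on 1250, 878, 1421 and 1683 reads. Dtx2, a ubiquitin ligase of the Notch pathway, held 1.85, 0.851, 1.12 and 1.34%, and Mgat4b, an enzyme of N-glycan branching, 1.22, 0.778, 1.44 and 0.895%. Both stayed within a factor of 2.17 between the highest and the lowest library. Chpf, an enzyme of chondroitin sulphate synthesis, held 1.36, 0.921, 0.902 and 0.736%, and Cnpy1, a member of the canopy family of endoplasmic reticulum proteins, 0.562, 0.976, 1.56 and 0.924%. Fbln5, which codes for a protein of elastic fibres, was at 0.591, 0.520, 1.21 and 0.513%, so that c stood above the other libraries. Gfi1, a transcriptional repressor of blood cell development, was at 0.478, 0.834, 0.801 and 0.353%. The table gives 1 value per gene and cannot show where in a gene its reads lie.

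The rest of the 30 were spread over several functions, with means of 0.283 to 0.821%. They included Pdk4, the kinase that switches off pyruvate dehydrogenase in fasting, Chchd3, a protein of mitochondrial cristae, and Psme1, a proteasome activator subunit. Nherf2 is a scaffold of membrane transporters, Ppp2r5e a regulatory subunit of a phosphatase, Spop an adaptor of a ubiquitin ligase and Tshr the thyrotropin receptor. Spop and Nherf2 were low in library a alone, where they held 0.0116 and 0.0625%, against at least 0.171 and 0.519% in the other libraries. Apoe, an apolipoprotein of liver and macrophages, and F9, a clotting factor made by the liver, were on no list. Apoe stood at 0.633, 0.277, 0.743 and 0.540%, and F9 at 0.0201, 0.0447, 0.396 and 0.699%.

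The 23 lists of tissues and cell types together held 9.38, 11.6, 11.8 and 10.9% of the nuclear mRNA TPM, so most of it was on none. In order of their means, liver and erythroid genes came first, followed by endothelial, heart muscle, neutrophil and platelet genes, although in library d the endothelial share was above the erythroid one. A mean of at least 0.5% was reached by 3 lists, and 14 were under 0.1%. Over the 4 libraries the range of each list overlapped that of the next in order, although within libraries the smooth muscle and fibroblast list was above the lung list in all 4. Of the 158 measured genes that define these sources, 50 had no read in any of the 4 libraries. Over all 20174 nuclear mRNAs 32.1% had no read, and 18.6% were above 0 in all 4. The counts given below for each list are to be read beside these shares. A count of 0 among the 266498 nuclear mRNA reads allows a share of up to 0.00113% of reads (3 reads), for counting error only.

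**Figure D3:**
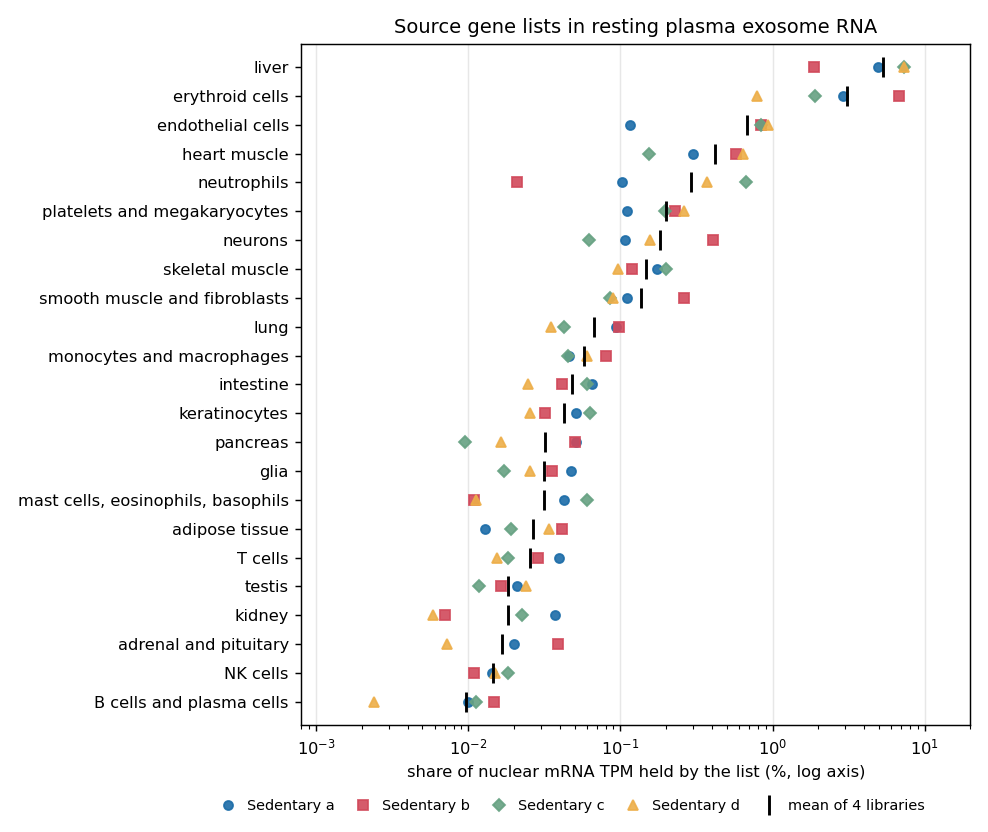
Share of nuclear mRNA TPM (percent, log axis) held by each of 23 source lists in Sedentary a, b, c and d, with a bar at the mean. Liver and erythroid genes lie above the others in libraries a, b and c, and library b has the lowest liver and the highest erythroid share, while the adrenal and pituitary list, at 0 in library c, is not drawn there.

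Liver genes made up the largest source list as the lists were drawn up. With the beta globin-like genes, which are on no list, the erythroid mean of 6.14% ± 4.59 would be above that of liver. In libraries c and d the erythroid share would still be below the liver share. Apoe and F9, also on no list, with means of 0.548 and 0.290%, were not added to the liver genes. The liver genes held 4.91% of the nuclear mRNA TPM in library a, 1.87% in b, 7.32% in c and 7.29% in d, a mean of 5.35% ± 2.58 (SD, n = 4), on 2128, 456, 2303 and 4156 reads. All 44 measured genes of the list had a read in some library and 35 were above 0 in all 4. Their median mean share was 0.0541%, against 0.00565% over all 3751 members. Ttr, the carrier of thyroid hormone and retinol-binding protein, led with 1.15, 0.574, 3.42 and 1.54% and took 31.3% of the list. Ttr is also made by the choroid plexus, and the list without it held 3.67%.

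Other plasma proteins of hepatocytes were likewise lowest in library b. Hpx, the haem-binding protein hemopexin, held 0.376, 0.165, 0.626 and 1.39%. Alb, serum albumin, held 0.596, 0.148, 0.342 and 0.582%, and Gc, the vitamin D-binding protein, 0.363, 0.160, 0.562 and 0.491%. Rbp4, which carries retinol in plasma bound to Ttr, held 0.279, 0.0825, 0.399 and 0.503%. The highest library was d for Hpx and Rbp4, a for Alb and c for Gc. Over the 35 liver members, b was lowest in 30 (85.7%), where it was lowest in 24.1% of all members, and d was highest in 22 (62.9%), against 17.9% of all members. The 5 liver members that were not lowest in b were Fabp1, Vtn, Kng1, Mug1 and Apoc1.

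Erythroid genes showed nearly the opposite order. They held 2.89, 6.75, 1.91 and 0.792% in a, b, c and d, a mean of 3.09% ± 2.59, on 1467, 1536, 814 and 519 reads. Library b was 8.52 times as high as d. The beta globin-like genes whose addition gives the mean of 6.14% are Hbbl1_1 and Hbbl1_2, added after the values were seen. Hba-a1, Hbb, Hbb-bs, Hbb-b1 and Ca1 were not analysed here. Beyond the globins, Ahsp, the chaperone of free alpha globin, held 0.0467, 0.443, 0.238 and 0.0824% on 9, 56, 44 and 21 reads. Bpgm, which makes the 2,3-bisphosphoglycerate of red cells, had 15, 31, 11 and 8 reads and Hemgn, a nuclear protein of erythroid precursors, 21, 24, 13 and 27. Of 31 measured genes 25 had a read in some library and 11 were above 0 in all 4, and 7 of those 11 were highest in b, against 27.9% of all members. Of the members with at least 100 reads, 17.7% were highest in b. Without library b the mean of the list was 1.86%.

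The promoter windows of some leading genes are shown as picked examples, as context for the gene groups, not as evidence of promoter use. RefSeq windows of build GRCr8 were matched by symbol for 28 of the 30 leading members. The last 150 bases of the window, from 100 before to 50 after the start, are given 5′ to 3′ on the strand of the gene, with TATAAA and GTTAAT (a core of the HNF1 site of liver promoters) in capitals. Hba-a2 (chr10:15829089-15829238) and Hba-a3 (chr10:15816894-15817043), both on the minus strand, carry a TATAAA in a nearly shared context. Alb (chr14:17906930-17907079, minus strand) carries a GTTAAT, and Rgs7 (chr13:89941001-89941150, minus strand), the steadiest of the leading members, carries neither. In the whole windows of the 28 leading members, GTTAAT was found in 3, which were Alb, Gc and the endothelial gene Erg. Ttr, Hpx, Rbp4 and F9, which the liver makes, had none.
Hba-a2: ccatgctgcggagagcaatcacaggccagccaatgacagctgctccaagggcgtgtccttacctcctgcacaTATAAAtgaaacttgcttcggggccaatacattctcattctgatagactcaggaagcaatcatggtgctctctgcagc
Hba-a3: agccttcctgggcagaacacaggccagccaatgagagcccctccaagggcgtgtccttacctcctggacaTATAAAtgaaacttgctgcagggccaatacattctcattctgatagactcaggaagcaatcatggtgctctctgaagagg
Alb: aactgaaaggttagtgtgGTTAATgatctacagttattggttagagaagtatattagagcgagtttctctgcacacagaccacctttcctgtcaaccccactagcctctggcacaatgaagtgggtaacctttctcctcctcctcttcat
Rgs7: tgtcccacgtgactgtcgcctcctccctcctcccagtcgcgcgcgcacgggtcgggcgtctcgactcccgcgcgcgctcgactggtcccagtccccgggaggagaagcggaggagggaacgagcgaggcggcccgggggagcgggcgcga
On either strand of the whole window, TATAAA was found in 10 of 30 liver members with a window (33.3%), 2 of 8 erythroid members, 7.53% of the 3002 members matched by their full name and 14.3% of all 27457 windows. GTTAAT was found in 8 of the 30 liver members (26.7%), in none of the 8 erythroid members, in 4.76% of members and in 7.37% of all windows. The site of the erythroid GATA factors, searched as AGATAA, was found in 2 of the 30 liver members, in none of the 8 erythroid members and in 11.3% of all windows. The motifs do not contain each other, a match is not a bound site, and sets of this size allow no comparison beyond these counts.

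Platelet and white cell genes held small shares. Platelet and megakaryocyte genes held 0.111, 0.227, 0.196 and 0.262%, with 6 of 26 measured genes above 0 in all 4, against 18.6% of all nuclear mRNAs. Pf4, a chemokine of platelet granules, took 53.3% of that on 9, 13, 18 and 24 reads. Tubb1, the tubulin of the platelet rim, had 2, 6, 7 and 25 reads, Treml1, a receptor of their granules, 2, 8, 1 and 5, and Itga2b, the integrin of platelet aggregation, 1, 9, 9 and 13. Ppbp, Gp1ba and Gp1bb, which also define platelets, had none. Library a was the lowest for this list and d the highest.

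Neutrophil genes held 0.103, 0.0210, 0.664 and 0.369%, with no member above 0 in all 4. RatNP-3b, a defensin of neutrophil granules, took 77.6% of the list on 8, 0, 61 and 45 reads. The defining genes S100a8, Ngp, Camp and Elane had no read. The mean of the list was 0.289%, and 0.164% without library c. Monocyte and macrophage genes held 0.0579% ± 0.0164, with Marco, a scavenger receptor, the only one above 0 in all 4. T cell, NK cell and B cell lists held 0.0254, 0.0146 and 0.00961%. Their most abundant members above 0 in all 4 were Tcf7 and Ccr7, Eomes, and Bank1, with 8 to 23 reads each in all. Of the T cell markers Cd3d, Cd247 and Cd8b had no read, nor did Klrd1, Prf1 and Ncr1 of NK cells, nor Ms4a1 and Jchain of B cells. Mast cell, eosinophil and basophil genes held 0.0313%, among them Tpsb2, a tryptase, and Epx, the eosinophil peroxidase, while Cpa3, Fcer1a, Ms4a2 and Tpsab1 had no read.

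The endothelial list rested on 1 gene. It held 0.116, 0.838, 0.839 and 0.936%, but Erg, a transcription factor of endothelial cells, took 87.1% of it and the list without Erg held 0.0882%. Erg was at 0.0338, 0.752, 0.729 and 0.861% on 26, 379, 538 and 875 reads, so library a stood apart. Vwf, the von Willebrand factor that endothelium and platelets store, had 18, 47, 77 and 50 reads. Plvap, a protein of capillary openings, had 9, 4, 15 and 17, Mmrn2, an adhesion protein of the vessel wall, 1, 15, 4 and 2, and the adhesion molecule Pecam1 3, 1, 18 and 4. As shares, Vwf and Mmrn2 were also lowest in library a, while Plvap and Pecam1 were lowest in b.

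Striated muscle genes were present at low levels in every library. Heart muscle genes held 0.301, 0.575, 0.153 and 0.635%, with 9 of 20 measured genes above 0 in all 4. Tnnt2, cardiac troponin T, had 32, 53, 22 and 109 reads, Myh7, the slow beta myosin heavy chain, 72, 110, 38 and 147, Myh6, the alpha myosin heavy chain of heart, 64, 44, 39 and 229, and Myl2, a ventricular light chain, 11, 18, 1 and 26. Library c was the lowest for 6 of the 9, and for 18.6% of all members. The blood had been drawn through the heart wall, and the part of this step was not tested. Skeletal muscle genes held 0.173, 0.119, 0.201 and 0.0964%. They were led by Tnni1, the slow troponin I, with 20, 7, 35 and 19 reads, Des, desmin of muscle filaments, with 17, 18, 22 and 3, Actn2, an actinin of the Z disc, with 20, 4, 6 and 17, and Tcap, a partner of titin, with 4, 1, 1 and 2. Tnni2 and Tnnc2, the fast troponins, had no read. Whether the reads of Des, Actn2 and Tcap came from skeletal or heart muscle was not tested.

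Smooth muscle and fibroblast genes held 0.110, 0.261, 0.0858 and 0.0895%. The highest was Mgp, an inhibitor of calcification, with 1, 21, 5 and 7 reads, followed by the collagen chains Col3a1, Col1a1 and Col1a2 with 127, 60 and 38 reads in all. Library b was the highest for the list and for Mgp.

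Most genes of nerve cells had few reads or none. The neuron list held 0.107, 0.407, 0.0623 and 0.156%, a mean of 0.183%, of which Npy took 56.6%. Without Npy the mean was 0.0795%, and without library b it was 0.109%. Rgs4, a regulator of G protein signalling, had 1, 18, 7 and 79 reads, Eno2, the neuronal enolase, 7, 4, 10 and 8, Gap43, a growth cone protein, 2, 1, 3 and 1, and Rbfox3, the NeuN antigen, 3, 1, 4 and 3. Syt1, Stmn2, Nefl, Gad1 and Slc17a7 had none. The glia list, with Mag of myelin, Slc1a3, a glutamate transporter, and Aqp4, a water channel, held 0.0315%, and Gfap had no read.

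Further lists of organs and of skin held at most 0.0673% in the mean. The lung list held 0.0673%, with Aqp5, a water channel, as its only member above 0 in all 4 and with Sftpa1, Scgb1a1 and Ager at 0. The intestine list held 0.0478%, led by Apoa4, an apolipoprotein, with the keratin Krt20 and the transcription factor Cdx2 behind it and Fabp2 at 0. The keratinocyte list held 0.0429%, nearly all of it Krt10, with Krt1 and Krt5 at 0. The pancreas list held 0.0318%, with Sst, somatostatin, above 0 in all 4 and Prss1, Cela2a, Pnlip, Ins2 and Gcg at 0. Adipose genes held 0.0267% with Adipoq at 0, and testis genes 0.0183% with Tnp1, Odf1 and Akap4 at 0, the members above 0 in all 4 being Gapdhs, a sperm enzyme, and Insl3_1, a Leydig cell hormone. Kidney genes held 0.0182%, with Slc34a1, a phosphate transporter, and the uptake receptors Lrp2 and Cubn above 0 in all 4 and Umod at 0. Adrenal and pituitary genes held 0.0166%, with Cyp11a1, Cyp11b1, Star, Pnmt, Gh1 and Prl at 0 and no member above 0 in all 4. No statement on these organs can be made at this depth beyond the few reads named.

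Genes that most cells use were also among the members. Cytosolic ribosomal proteins held 0.929, 3.35, 1.72 and 1.84%, with 16 of 65 measured genes above 0 in all 4. Rpl35 led with 33, 368, 206 and 361 reads, followed by Fau, which is made as a fusion with ribosomal protein S30, with 29, 28, 28 and 58, Rpl19 with 6, 28, 5 and 22 and Rps15 with 6, 13, 7 and 11. Library a was lowest in 12 of the 16, against 23.8% of all members, and library b highest in 10, against 27.9% of all members. Of the members with at least 100 reads, 33.1% were lowest in a and 17.7% highest in b. Translation factors held 0.659, 1.24, 0.769 and 0.850%, with 20 of 33 above 0 in all 4, led by Tpt1, the translationally controlled tumour protein, Eif3d, Eef1a1, the elongation factor that brings tRNA to the ribosome, and Pabpc1, the poly(A)-binding protein.

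Chaperone, ubiquitin and proteasome genes held 0.594, 1.09, 0.804 and 2.19%, so that d was the highest library, and 9 of their 14 members above 0 in all 4 were highest there, against 17.9% of all members. Hsp90ab1, a cytosolic chaperone, had 52, 110, 137 and 547 reads and its inducible relative Hsp90aa1 6, 44, 35 and 212. Psma4 and Psma2, core subunits of the proteasome, had 155 and 296 reads in all. Splicing and RNA-binding genes held 0.356, 0.798, 1.01 and 0.950%, with Luc7l3, a splicing factor, at 36.9% of the list, and Hnrnpu and Snrnp70 next. Chromatin genes held 0.364% ± 0.156, led by Anp32e, a histone chaperone, Ncl, nucleolin, Anp32b and Chd4, a remodeller.

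Genes of oxidative phosphorylation in the nucleus held 0.731, 1.07, 0.505 and 1.15%, with 21 of 73 above 0 in all 4, among them Uqcrh, Ndufb7, Cycs, cytochrome c, and Ndufa1. Cytoskeleton genes held 0.526% ± 0.120, led by Myh9, the non-muscle myosin, Tmsb4x_2, a thymosin, Vim, vimentin, and Pfn1, profilin. Glycolysis genes held 0.243% ± 0.0436, led by Aldoa, the aldolase of muscle and red cells, with the enolase Eno1 and the isomerase Gpi also above 0 in all 4. MHC genes held 0.236% ± 0.157, of which B2m, the light chain of class I, took 67.3%, with RT1-S3, RT1-A1 and RT1-T24-1, which are class I genes of the rat, behind it. Iron handling genes held 0.188% ± 0.0852, of which Fth1, the ferritin heavy chain, took 83.6%, with Ftl1_1, Cp, the copper enzyme ceruloplasmin, and Aco1 after it. Immediate early and stress genes held 0.0504% ± 0.0102, with Klf4, Ier3, Klf2 and Fosb above 0 in all 4. Over the lists named here the share of genes above 0 in all 4 varied from 16 of 65 for ribosomal proteins to 21 of 31 for the cytoskeleton. Of all nuclear mRNAs, 18.6% were above 0 in all 4. Several widely used genes of these lists, such as Actb, Gapdh and Cfl1, were not analysed here.

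The mRNAs of exosome marker proteins held a small share, but were not seen less often than other mRNAs. The 26 genes of the exosome and vesicle list held 0.0939, 0.1004, 0.0458 and 0.147%, and 23 had a read in some library. Of the 26, 8 were above 0 in all 4, against 18.6% of all nuclear mRNAs. Among these were Flot1, flotillin, Pdcd6ip, which codes for Alix, and Anxa2 and Lamp1. Cd63, the tetraspanin detected as protein in the study's exosomes, had 1, 3, 2 and 6 reads, Cd9 had 4, 3, 3 and 1, and Cd81 had 1, 0, 2 and 0. These counts lie within a few reads of each other and of 0. They are levels of mRNA and say nothing of the protein on the vesicles.

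Of the exercise factors on the list of exerkines and myokines, which held 0.219% ± 0.130, Npy, the neuropeptide Y gene, had 8, 31, 0 and 6 reads. Its share was 0.0554, 0.328, 0 and 0.0314%, with b above the other libraries. Bdnf, a growth factor of neurons, had 5, 2, 3 and 5 reads, and Fndc5, the precursor of irisin, had 4, 0, 0 and 1. The 4 most abundant of the list that were above 0 in all 4 libraries were Clu, clusterin, at 0.0352%, Sparc, a matrix protein, at 0.0134%, Lif, a cytokine, at 0.0113% and Metrnl, a muscle-secreted hormone, at 0.00841%. None of these named factors had more than 39 reads in a library.

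How much the members varied between libraries was measured by the coefficient of variation (CV, the SD of the share as a percent of its mean) in the 350 members with at least 100 reads. It ran from 5.34 to 170% with a median of 52.5%, where counting error alone would give a median of 14.4%. In 314 of the 350 the CV was over 2 times the counting error, a figure that takes each read as a separate molecule. Amplified copies of a molecule would make the true counting error larger, so this is a lower bound for it and no measure of biological spread.

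**Figure D4:**
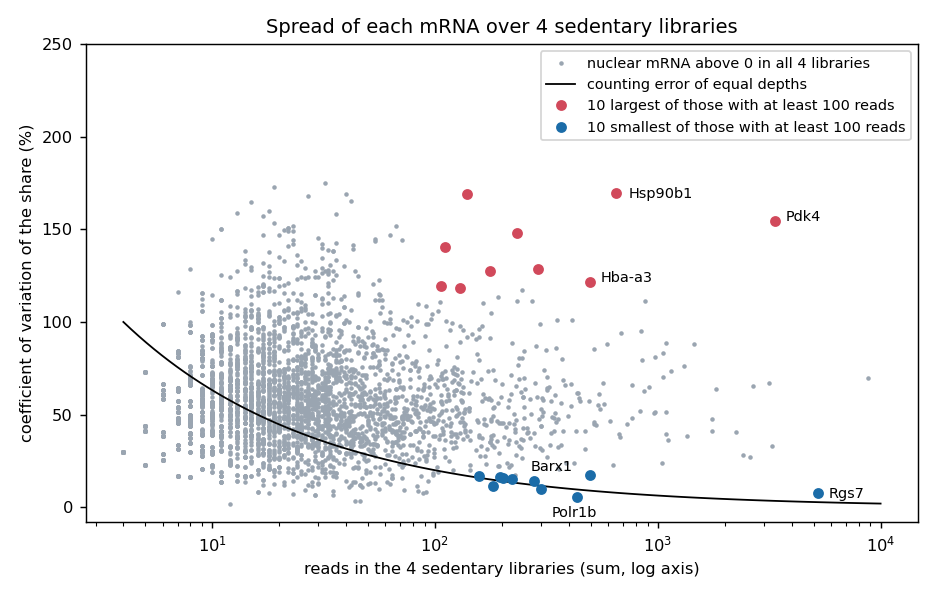
CV of the share over the 4 sedentary libraries (percent) against the summed reads (log axis) for the 3751 members, with the line that counting error gives for libraries of equal depth. The 10 largest and 10 smallest CVs among members with at least 100 reads are coloured, from Hsp90b1 at 170% to Polr1b at 5.34%.

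The steadiest members were of mixed function. Polr1b, a subunit of RNA polymerase I, was at 0.125, 0.134, 0.126 and 0.118%, and Rgs7 came next with a CV of 7.75%. Prr22, Arhgef17, a guanine nucleotide exchange factor, Barx1, a homeobox factor, and Kmt2a, a histone methyltransferase, had CVs of 9.85, 11.3, 13.9 and 15.1%. Ubxn1, Clpb, a mitochondrial disaggregase, Entpd5 and Marcks, a substrate of protein kinase C, had CVs of 15.8 to 17.4%. Of these 10, only Rgs7 was among the 30 most abundant and only Kmt2a was on a list.

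Of the 10 members with the largest CVs, 7 were highest in d, 2 in b and 1 in a, where d was highest in 105 of the 350 members. The minimum of 100 summed reads favours genes high in d. Hsp90b1, P4hb, Krt8, Pdap1, Canx and Pdia4 passed it only through their reads in d. Of the 7 genes highest in d, only Pdk4 would have passed it without that library. Pdk4 held 0.0146, 0.0819, 0.491 and 2.70% on 12, 44, 386 and 2922 reads, a factor of 184 between libraries a and d. Hsp90b1, a chaperone of the endoplasmic reticulum, held 0.0175, 0.0287, 0.0322 and 0.608% on 13, 14, 23 and 599 reads. In each of these d alone carried most of the reads.

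Further genes of protein folding in the endoplasmic reticulum were among the 7. P4hb, protein disulphide isomerase, had 7, 1, 4 and 127 reads, Canx, calnexin, 10, 6, 46 and 227, and Pdia4, a further disulphide isomerase, 5, 3, 18 and 81. Krt8, a keratin of simple epithelia such as hepatocytes, had 9, 3, 23 and 199, and Pdap1 had 1, 3, 15 and 92. The remaining 3 were Hba-a3, Pcnp, with 109 reads in b and 21 to 23 in the others, and Ephb2, an ephrin receptor, with 91 reads in a and 9 to 17 in the others. Library d also had the largest number of nuclear mRNA reads and, with c, the highest liver share, and the part of these in the values of Pdk4 and the folding genes was not tested.

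In the liver, erythroid, ribosomal protein and chaperone lists the median member differed between libraries by more than the median of all members did. Among the lists, such medians were taken for these only. A median of few genes can vary more by chance than one of 3751. Nuclear oxidative phosphorylation was spread over the libraries, with 5, 6, 3 and 7 members highest in a, b, c and d. Some further lists were less even. Heart muscle was lowest in c in 6 of 9 members, against 18.6% of all members. Translation factors were highest in b in 10 of 20, and cytoskeleton genes highest in c in 10 of 21. Relative to its own mean over the 4 libraries, the median liver member stood at 0.14, -1.54, 0.04 and 0.58 (log2) in a, b, c and d, the median erythroid member at -0.60, 0.68, -0.76 and -0.26, the median ribosomal protein member at -1.19, 0.59, 0.11 and -0.13, and the median chaperone and proteasome member at -1.25, -0.15, -0.38 and 0.75. Over all 3751 members these medians were -0.03, -0.11, -0.09 and -0.28. None of the 35 liver members was above its own mean in library b, where 44.7% of all members were. Library b was also the library with the fewest reads, and the part of depth in its low liver and high erythroid share was not tested.

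**Figure D5:**
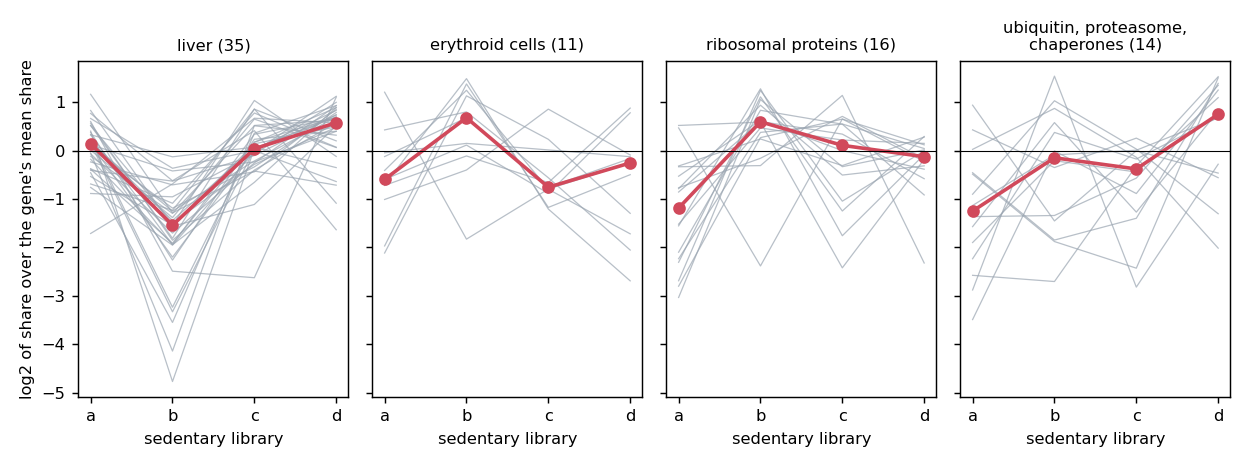
Share of each member over its own mean of the 4 sedentary libraries (log2) for the liver, erythroid, ribosomal protein and chaperone lists, with 1 grey line per gene above 0 in all 4 libraries and the median in red. The 35 liver genes are all below their own mean in library b, and 30 of them are lowest there. The median erythroid and ribosomal protein genes are at their highest in the same library.

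Across the 3751 members, Spearman's rho between the shares of a pair of libraries ran from 0.588 for a and b to 0.738 for c and d. These are descriptions across genes, which are not independent replicates, and many members rest on few reads. When 1 library supplied over 50% of the summed share of a member, it was b in 323 members, a in 230, d in 142 and c in 117. Among members with at least 100 reads it was d in 30, a in 17, b in 10 and c in 6. A single read weighs most in b, the shallowest library, and d supplies the most reads to a sum. Libraries a and c, with 67090 and 65130 mRNA reads, had unlike counts. The part of depth in these counts was not tested.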

How the data were processed

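The authors deposited 1 table of TPM with a column for each of 8 libraries, made from exosome RNA-seq reads. The submitters' processing notes name the rat build mRatBN7.2. Which annotation, aligner and counting tool were used, and whether duplicates were removed, was not given in the sources used here. The members and lists were chosen with earlier results of these data known.

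RNA types came from RefSeq (assembly GRCr8) by symbol, synonym or name without its copy number, or else from the name pattern, and 4735 of 29541 genes kept no type. TPM holds no depth, so reads and exon lengths were recovered as the smallest whole numbers that give a gene's values in all 8 columns, at a relative tolerance of 1e-10. All 71860 values above 0 came out whole. Recovery from the sedentary columns alone gave the same reads for 3672 of 3751 members. If reads and length of a gene share a factor, the true reads are a multiple. Exercised columns served this step only. No test between groups was run, since the libraries form 1 group, and Dixon's limit was used only to single out values that stand apart. Shares are means ± SD over 4 libraries, and intervals or floors cover counting error only.

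Named genes were the 30 members with the highest mean share, up to 4 of each list (36 lists) above 0 in all 4 libraries, defining markers at 0, the 10 largest and 10 smallest CVs at 100 reads or more, the markers and exercise factors of the study, and the leader of each RNA type. A few genes that this rule names are not reported here. Hbbl1_2, the liver genes not lowest in library b and the genes of the closing observations were chosen after their values were seen. Read recovery and rarefaction were tested on simulated data. Python 3.11.15, numpy 2.4.6, pandas 2.3.3, scipy 1.17.1 and matplotlib 3.10.9 were used. Sensitivity was tried with read and TPM minimums, exact symbols, rarefaction, reads in place of TPM, single genes left out and single libraries left out.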

Additional observations from a re-analysis of the deposited data

Results flagged for a closer look

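In 4 libraries, a value was singled out when its gap to the nearest other library was over 0.829 of the whole range. Chance alone singles out about 1 in 20 groups of 4, and here 21 of 197 groups were singled out (10.7%), of 36 lists, 14 RNA types and 147 genes. Among the lists these were the endothelial list, low in library a at 0.116% of nuclear mRNA TPM, the smooth muscle and fibroblast list, high in b at 0.261%, and the glycolysis list, high in d at 0.307%. Among the 30 leading members they were Fbln5, high in c at 1.21%, and Erg, low in a at 0.0338%, which carries the endothelial list.

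In library b, Mmrn2 was high at 0.0247%, Mgp at 0.138%, Rps15 at 0.169%, Vim at 0.122%, Npy at 0.328% and Pcnp at 0.298%. In library d, Eif3d was high at 0.286%, Hsp90b1 at 0.608%, P4hb at 0.122% and Krt8 at 0.292%. In library a, Pf4 was low at 0.0580%, while Tcap was high at 0.0175%, Aqp4 at 0.00510% and Ephb2 at 0.114%. Prr22 was low in c at 0.135%, and Insl3_1 was singled out at 0.00258% on 4 reads in a. Hsp90b1, P4hb, Krt8, Pcnp, Prr22 and Ephb2 had been chosen for their spread, large or small.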

How the results depend on the processing

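The count of 3751 members fell to 1394 with at least 3 reads in all 4 libraries, 374 with at least 10 reads, 621 with at least 0.1 TPM and 57 with at least 1 TPM. It was 3705 by exact RefSeq symbol and 2879 at equal depth, and leaving out 1 library at a time gave 4131 to 5291. The nuclear mRNA share of 0.128% of TPM was 0.254% of reads and 11.9% of the TPM outside the 10 most abundant RNAs, and 0.112 to 0.136% without 1 library. The share of the 30 leading members was 22.1% when ranked and summed on reads, with 24 of the 30 the same genes, and 24.6 to 26.4% without 1 library. The liver share ran from 4.69 to 6.51% without 1 library and was 3.08% of reads. The erythroid share ran from 1.86 (without b) to 3.85% without 1 library and was 1.89% of reads. With the beta globin-like genes added it was 6.14% ± 4.59, above the liver share of 5.35%, to which no gene was added. For the 36 lists, leaving out the most abundant gene moved 11 shares by over 1 SD, all down, and counting reads moved 2 up and 9 down. With the lists as drawn up, liver was the largest source list on TPM, on reads, without leading genes and in libraries a, c and d, while erythroid genes led in b. No paired analysis was possible because the sedentary libraries were compared with no other group and no test between groups was run. Depth limits the lists with few reads most.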

Other observations

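Several genes just below the 30 leading members are on no list although known from nerve cells, sense organs or the hypothalamus. They were picked from ranks 31 to 50 after their values were seen. These ranks also hold Tf of the liver list, Ahsp of the erythroid list and Tpt1 of the translation factors, with others such as Srbd1, Myo1e and Hadh. The defining neuron genes Syt1, Stmn2, Nefl, Gad1 and Slc17a7 had no read, and the source of the picked mRNAs was not tested. Avp, the gene of the hormone vasopressin made in the hypothalamus, was member 49 in rank, at 0.186, 0.136, 0.303 and 0.102% of nuclear mRNA TPM on 25, 12, 39 and 18 reads. Htr3b, a subunit of a serotonin-gated channel, was member 35, at 0.298, 0.175, 0.253 and 0.273% on 104, 40, 85 and 126 reads. Or4f57, an olfactory receptor gene, was member 36, at 0.286, 0.147, 0.314 and 0.202% on 107, 36, 113 and 100 reads. Cryba2, a crystallin of the eye lens, was member 33, at 0.207, 0.229, 0.405 and 0.185%. All of these were read in every library within a factor of 3. Nova2, a neuronal splicing factor, was member 50, at 0.318, 0.132, 0.164 and 0.0871% on 232, 63, 115 and 84 reads, highest in library a.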
